A study of Mus musculus with 6 samples.

Results

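Adipose progenitor subtype markers were followed in inguinal white adipose tissue (iWAT), a subcutaneous fat depot, of mice homozygous for a global knock-in of THRA K283Q/K288R (mutant) and of wild-type mice (Wt). The substitutions remove sites in thyroid hormone receptor alpha at which the small protein SUMO is attached. All mice were C57BL/6NTac males, 3 months old, untreated and fed chow, with 3 mutant and 3 Wt mice and 1 RNA-seq library for each mouse. The mutation is present in every cell of the body, so whole fat pads carry it in adipocytes, stromal cells, vessels and immune cells alike, and gene-level values cannot show the substitutions themselves.

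The markers were 10 symbols, *Pdgfra*, *Pdgfrb*, *Dpp4*, *Pi16*, *Icam1*, *F3*, *Ly6a*, *Cd34*, *Dlk1* and *Cd142*, and each was looked up as the gene name in the deposited values, which list 55573 genes. Of these symbols, 9 had a row. *Cd142* had none, since CD142 is the name of the protein that *F3* encodes, and it is described under *F3*. All 9 markers were among the 16868 genes tested.

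Fat is renewed from progenitors that lie in the stroma around vessels and in the connective tissue between lobules. Cells with DPP4 and PI16 on their surface, called interstitial progenitors, are held to be the least committed, and cells with ICAM1, the committed preadipocytes, lie closer to the adipocyte. A further stromal population carries CD142 and has been described as restraining the differentiation of its neighbours. PDGFRA, CD34 and LY6A (SCA-1) are shared by these populations, PDGFRB is shared with mural cells of vessels, and DLK1 (PREF-1) is the classical preadipocyte protein that is lost on differentiation.

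Values are reads per gene scaled by library size to CPM, with 1 more factor per mouse, and are written below as normalized CPM. Each mouse had 19607423 to 24228381 reads on genes, and 3 reads on a gene correspond to 0.126 to 0.157 normalized CPM. The genotypes were compared with limma on log2(value + 0.5), a scale that understates the change of genes with low values, with Benjamini-Hochberg adjustment over all 16868 genes and an FDR threshold of 0.05. Fold changes are given as mutant minus Wt on this log2 scale, with the standard error (SE). The labels number the mice and name no batch, so the spread is that between mice of one genotype. In whole tissue, fewer cells of a type and less RNA per cell cannot be told apart.

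None of the 9 markers passed the FDR threshold with limma, against a background of 8.11% of all genes tested (1368 of 16868). The quasi-likelihood test of edgeR, run on recovered reads, also called 0 of the 9, where it called 6.92% of all genes. DESeq2's Wald test called 1, *Dpp4*, where it called 12.6% of all genes. At an unadjusted limma p under 0.05 there were 3 markers, *Dpp4*, *Pdgfra* and *F3*, where 24.2% of all genes tested had such a p. In 3 markers, *Pdgfra*, *Dpp4* and *Pi16*, all mutant mice lay above all Wt mice, which was so for 14.9% of all genes tested. No marker lay below Wt in all mutant mice, which was so for 15.7% of all genes tested. The median log2 fold change of the 9 markers was 0.15, with 6 positive and 3 negative, and that of all genes tested was -0.05.

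**Figure D1:**
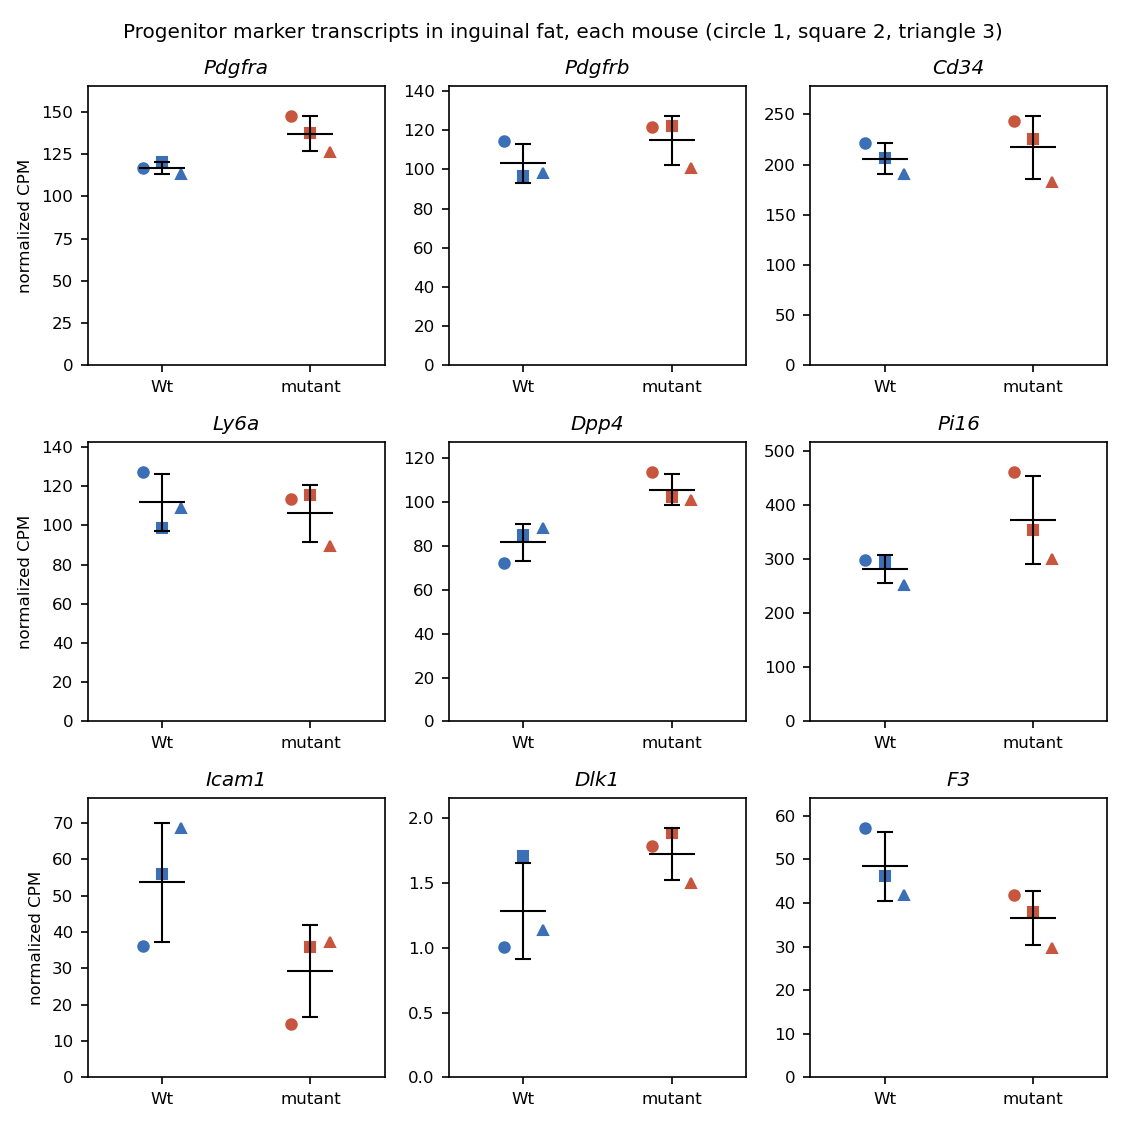
Each panel plots 1 marker in normalized CPM on an axis that starts at 0, with 1 point for each mouse by genotype, a horizontal bar at the mean and whiskers of 1 SD (n = 3 mice per genotype). *Dpp4*, *Pi16* and *Pdgfra* have all 3 mutant points above the Wt points, and the other 6 panels overlap.

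To show the markers by their DNA as well as by their levels, the 250 bases before the RefSeq start are printed for 1 marker of each subtype, *Dpp4* (interstitial progenitors), *Icam1* (committed preadipocytes) and *F3* (regulatory stromal cells). The windows are chr2:62412232-62412481 on the minus strand, chr9:21015690-21015939 on the plus strand and chr3:121723287-121723536 on the plus strand of GRCm38.p6, written 5′ to 3′. Capitals mark matches to the motifs described after the sequences.
Dpp4: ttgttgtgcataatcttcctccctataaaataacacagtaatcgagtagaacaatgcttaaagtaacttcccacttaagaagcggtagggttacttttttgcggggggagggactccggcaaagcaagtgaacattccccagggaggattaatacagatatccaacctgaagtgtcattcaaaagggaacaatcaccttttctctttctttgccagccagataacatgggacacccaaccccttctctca
Icam1: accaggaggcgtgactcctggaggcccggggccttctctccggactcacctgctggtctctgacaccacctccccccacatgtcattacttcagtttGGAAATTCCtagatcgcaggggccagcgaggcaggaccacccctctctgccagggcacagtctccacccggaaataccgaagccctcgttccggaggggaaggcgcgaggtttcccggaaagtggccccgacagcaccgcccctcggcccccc
F3: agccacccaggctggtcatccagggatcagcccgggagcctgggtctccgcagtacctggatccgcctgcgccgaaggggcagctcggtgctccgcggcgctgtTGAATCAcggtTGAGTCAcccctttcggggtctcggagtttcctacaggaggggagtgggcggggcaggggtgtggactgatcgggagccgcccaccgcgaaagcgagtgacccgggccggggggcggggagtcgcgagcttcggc

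RefSeq had such a window for 7 of the 9 markers, and both strands were searched for the cAMP response element TGACGTCA, its shorter form TGACG (which every full element also holds), the AP-1 site TGANTCA, the nuclear receptor core motif AGGTCA and the NF-kB type site GGAANTTCC. *F3* held 2 AP-1 matches, TGAATCA starting 146 bases and TGAGTCA starting 135 bases before the start, and 6.75% of 32851 mouse windows of the same length held at least 1. *Icam1* held 1 NF-kB type match, GGAAATTCC, 153 bases before the start, a motif found in 0.813% of the windows. *Dpp4* held none of the 5 motifs. No window of the 7 held the full cAMP element, which 1.55% of all windows did, or the nuclear receptor core motif, which 14.0% did. The shorter cAMP form was in the windows of *Pdgfra* and *Dlk1*, and in 17.8% of all windows. The *F3* window overlaps an exon of the noncoding gene *Gm43823*. These are matches of letters, and whether any factor binds there was not measured here.

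The markers that the subtypes share are given first. *Pdgfra* (ENSMUSG00000029231, chr5:75152292-75198215 on GRCm38) encodes the receptor for PDGF-A and PDGF-C that marks nearly all adipose progenitors. Its values were 117, 120 and 113 normalized CPM for Wt mice 1, 2 and 3, whereas mutant mice 1, 2 and 3 had 147, 137 and 126. Every mutant mouse was above every Wt mouse, and the mutant mice were spread more widely. The means were 117 ± 3.58 in Wt and 137 ± 10.5 in mutant mice (SD, n = 3 each), a log2 fold change of 0.23 (SE 0.08) with a 95% confidence interval of 0.03 to 0.43. The unadjusted limma p was 0.032 and the limma adjusted p was 0.162, so the difference did not pass the threshold.

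*Pdgfrb* (chr18:61045150-61085061), the receptor of progenitors and of pericytes, stood at 114, 96.7 and 98.1 normalized CPM in Wt mice 1 to 3, against 122, 122 and 100.6 in mutant mice 1 to 3. The genotypes overlapped, with mutant mouse 3 below Wt mouse 1. Its log2 fold change was 0.15 (SE 0.11), with a limma adjusted p of 0.437, and without mutant mouse 3 it was 0.25 (limma adjusted p = 0.235).

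*Cd34* (chr1:194938819-194961279), a sialomucin of stromal progenitors that endothelial cells also carry, was at 221, 206 and 190 normalized CPM in the Wt mice, against 243, 226 and 183 in mutant mice 1 to 3. The mutant mice held both the highest and the lowest of the 6 values. The log2 fold change of 0.07 (SE 0.13) had a 95% confidence interval of -0.24 to 0.38 and a limma adjusted p of 0.758, and the sign turned to -0.02 without mutant mouse 1.

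*Ly6a* (chr15:74994877-74998031, minus strand) encodes SCA-1, a surface protein used to sort progenitors that also occurs on endothelial cells and lymphocytes. Its values were 127, 98.8 and 109 normalized CPM in the Wt mice, against 114, 115 and 89.4 in mutant mice 1 to 3, with no order by genotype. The log2 fold change was -0.07 (SE 0.14), with a 95% confidence interval of -0.41 to 0.26 and a limma adjusted p of 0.761, and it was 0.02 without Wt mouse 1 and 0.04 without mutant mouse 3. Of the stretches of 50 bases in its annotated transcripts, 19.0% also occur in transcripts of other genes, mostly of its paralog *Ly6c1*, so how its reads were assigned is uncertain.

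The interstitial progenitor markers were *Dpp4* and *Pi16*. *Dpp4* (chr2:62330073-62412231, minus strand) encodes dipeptidyl peptidase 4, a surface protease that trims incretins and chemokines. Its values were 72.3, 84.9 and 88.3 normalized CPM in Wt mice 1 to 3, against 114, 103 and 100.98 in mutant mice 1 to 3. The lowest mutant mouse was above the highest Wt mouse. The means were 81.8 ± 8.40 in Wt and 106 ± 7.01 in mutant mice (SD, n = 3 each). The log2 fold change was 0.37 (SE 0.10), with a 95% confidence interval of 0.13 to 0.62. The limma adjusted p was 0.0829 and that of edgeR's quasi-likelihood test was 0.0641. With DESeq2's Wald test *Dpp4* passed the threshold, at an adjusted p of 0.0146 and a log2 fold change of 0.39, so its call depends on the test used. Leaving out any single mouse kept the log2 fold change between 0.29 and 0.43, and limma called it in none of these fits.

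*Pi16* (chr17:29317680-29330593) encodes peptidase inhibitor 16, a secreted and membrane-tethered protein of fibroblast-like progenitors. It was at 297, 295 and 251 normalized CPM in the Wt mice, against 461, 354 and 300.4 in mutant mice 1 to 3. The genotypes did not overlap, but mutant mouse 3 lay only just above Wt mouse 1. The means were 281 ± 25.9 and 372 ± 81.6 (SD, n = 3 each), a log2 fold change of 0.38 (SE 0.17) with a limma adjusted p of 0.235. Mutant mouse 1 carried much of this difference, and without it the log2 fold change was 0.22. Mutant mouse 1 also had the least T and B cell marker RNA of all mice, as given below with *Icam1*.

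Among the 11 other genes of the interstitial progenitor list, 3 rose in mutant mice with limma, 0 fell and 8 did not pass the threshold, where 5.5% of all genes tested rose. Their median log2 fold change was 0.29, beside -0.05 over all genes tested. *Sema3c*, a secreted semaphorin, was at 86.3, 87.8 and 60.6 normalized CPM in the Wt mice, against 172, 133 and 134 in mutant mice 1 to 3, a log2 fold change of 0.91 (SE 0.18) with a limma adjusted p of 0.0312. *Limch1*, which promotes non-muscle myosin activity, went from 58.7, 56.6 and 42.7 in Wt mice to 84.1, 78.9 and 87.4 in mutant mice, a log2 fold change of 0.67 (SE 0.13) with a limma adjusted p of 0.0325. *Anxa3*, an annexin that binds membranes in the presence of calcium, went from 85.3, 90.6 and 80.6 to 134, 116 and 109, a log2 fold change of 0.48 (SE 0.10) with a limma adjusted p of 0.039. In each of the 3 genes all mutant mice were above all Wt mice, as in 14.9% of all genes tested. The genes are close to the threshold. With any 1 mouse left out, *Sema3c* and *Anxa3* were called in 0 of 6 limma fits, with adjusted p of 0.0503 to 0.088 and 0.0563 to 0.137, and *Limch1* in 2 of 6, with adjusted p of 0.0451 to 0.0973.

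Of the remaining genes of this list, *Wnt2*, *Efhd1* and *Stmn4* also had every mutant mouse above every Wt mouse, and *Creb5* overlapped. All mutant mice thus lay above all Wt mice in 6 of the 11 list genes, beside 14.9% of all genes tested. *Wnt2*, a Wnt ligand, was at 4.06, 3.74 and 3.91 normalized CPM in the Wt mice, against 7.49, 7.94 and 5.10 in the mutant mice 1 to 3, a log2 fold change of 0.71 (SE 0.19) and a limma adjusted p of 0.0718. DESeq2's Wald test called *Wnt2* (adjusted p = 0.0146), so its call depends on the test used. *Bmp7*, *Cd55*, *Dact2* and *Ackr3* had log2 fold changes of -0.18 to -0.06 and overlapped. The changes were thus in some genes of the list and not in others. Markers of mesothelium, the cell layer that lines the body cavity, were also higher in mutant mice. Of 8 mesothelial markers 6 rose, among them *Msln* and *Upk3b*, where 5.5% of all genes tested rose. The median log2 fold change over the list was 2.33. Its summed level was 4.81 to 32.8 normalized CPM in the Wt mice, against 37.7 to 77.2 in mutant mice. The part of the mesothelial markers in the result was not tested. The sum of 32.8 in Wt mouse 1 was mostly *Krt19*, at 28.5. The summed level of 6 epithelial markers was also highest in Wt mouse 1, at 75.8 normalized CPM, against 3.79 to 23.1 in the other mice.

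**Figure D2:**
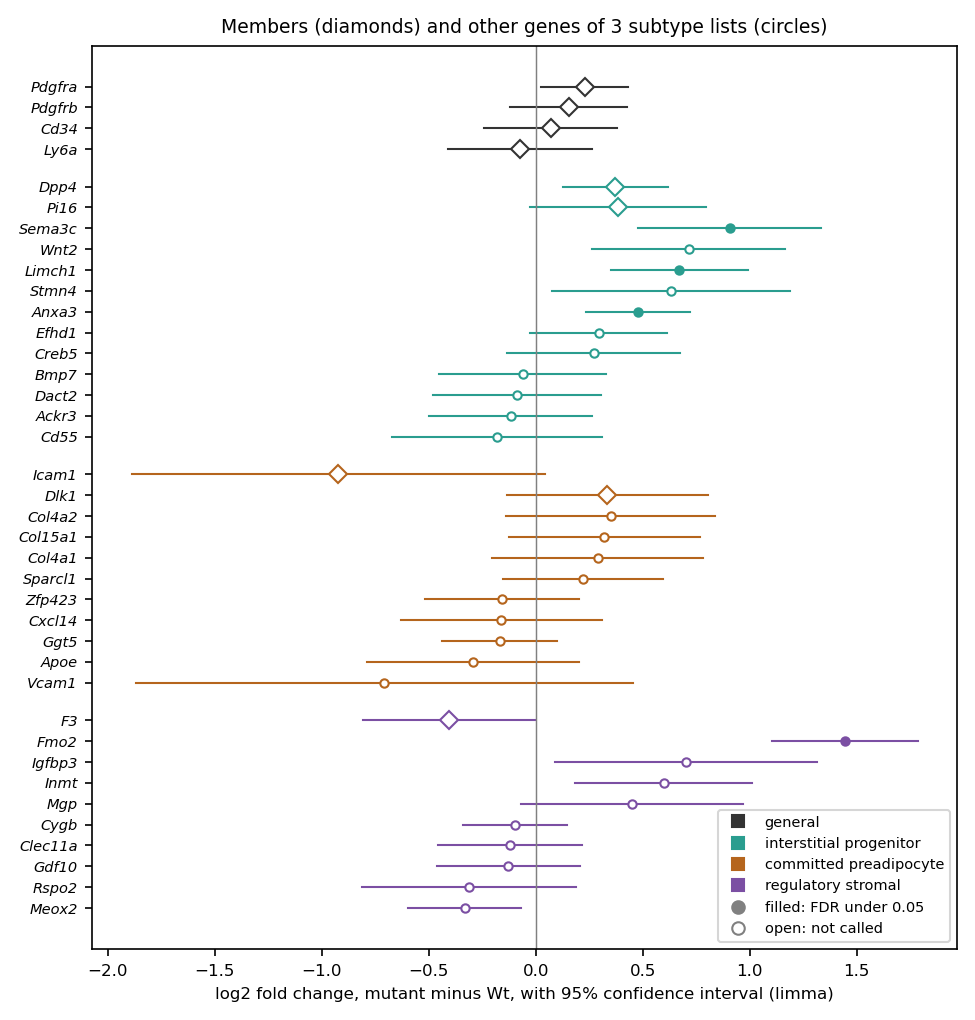
Log2 fold changes of the 9 markers (diamonds) and of the 29 other genes of the 3 subtype lists (circles), mutant minus Wt, with 95% confidence intervals from limma (n = 3 mice per genotype). Filled symbols passed an FDR of 0.05, which were *Sema3c*, *Limch1*, *Anxa3* and *Fmo2*, and all 9 diamonds are open.

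The committed preadipocyte marker *Icam1* (chr9:21015985-21028817) encodes an adhesion protein that binds integrins of leukocytes and that many activated cells carry. Its values were 36.2, 56.0 and 68.6 normalized CPM in Wt mice 1 to 3, against 14.8, 35.9 and 37.3 in mutant mice 1 to 3. Mutant mouse 1 was far below the other mice, and Wt mouse 1 lay between mutant mice 2 and 3, so the genotypes overlapped. The means were 53.6 ± 16.3 in Wt and 29.4 ± 12.6 in mutant mice (SD, n = 3 each). The log2 fold change of -0.92 (SE 0.40) had the widest 95% confidence interval among the markers, -1.89 to 0.04, with a limma adjusted p of 0.227. Without mutant mouse 1 it was -0.49 (limma adjusted p = 0.343).

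*Icam1* is also carried by lymphocytes and endothelium, and markers of lymphocytes varied between these mice. The summed level of 7 T cell markers was 135, 372 and 532 normalized CPM in Wt mice 1 to 3, against 6.55, 217 and 275 in mutant mice 1 to 3. That of 6 B cell markers was 382, 778 and 822 in Wt mice and 3.30, 480 and 749 in mutant mice. None of these 13 genes passed the threshold with limma, edgeR or DESeq2, and 0 had an unadjusted limma p under 0.05, and no defining marker was at 0 in all mice. Within each genotype, mouse 3 had the most T cell marker RNA and the most *Icam1*, and mouse 1 the least of both. Mutant mouse 1, with T and B cell markers near 0, had 282 reads on *Icam1*. Over the 6 mice *Icam1* had a Pearson r of 0.954 with the summed T cell level, both on a log2 scale. Its r was 0.904 with summed B cell markers and -0.233 with summed endothelial markers. With summed mural and with summed general stromal genes it was -0.88, so a high r was not particular to T cells. *Pi16* ran the other way with the T cell level, with an r of -0.91, as did *Pdgfra* (-0.775) and *Cd34* (-0.766). The part of the lymphocytes in the values of *Icam1*, *Pi16* and *Pdgfra* was not tested.

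**Figure D3:**
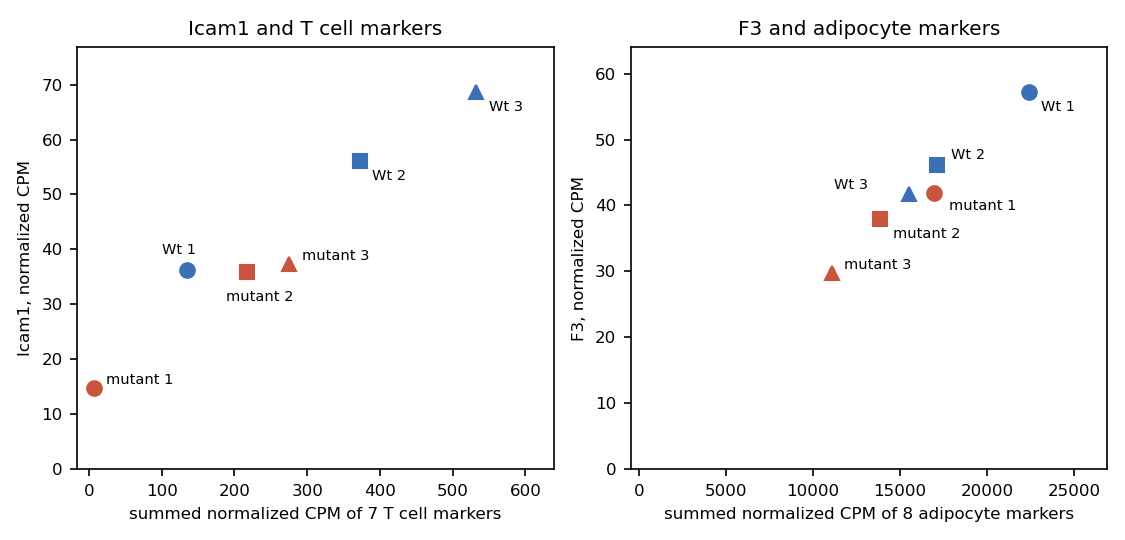
Left, *Icam1* against the summed level of 7 T cell markers, and right, *F3* against the summed level of 8 adipocyte markers, both axes in normalized CPM and 1 labelled point for each mouse. Mutant mouse 1 is lowest on both axes at left, and the 6 mice stand in the same order on both axes at right.

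Other genes of the committed preadipocyte list did not follow *Icam1* as a group. Of 9 genes, 0 rose, 0 fell and 9 did not pass the threshold with limma, and their median log2 fold change was -0.16, with 4 positive and 5 negative. edgeR and DESeq2 also called 0. An unadjusted limma p under 0.05 was found for 0 of the 9, where 24.2% of all genes tested had such a p. The smallest was 0.13, for *Col15a1*. *Vcam1*, an adhesion protein of stroma and activated endothelium, had the pattern of *Icam1*, with 39.9, 61.2 and 85.3 normalized CPM in the Wt mice, against 17.2, 52.0 and 52.3 in the mutant mice 1 to 3, a log2 fold change of -0.71 (SE 0.48, limma adjusted p = 0.408). The basement membrane collagens *Col15a1*, *Col4a1* and *Col4a2* had positive log2 fold changes of 0.29 to 0.35 and overlapped between the genotypes. *Zfp423*, a transcription factor of preadipocyte commitment, was at 57.3, 49.5 and 44.8 in Wt mice and 53.0, 45.5 and 37.9 in mutant mice 1 to 3, a log2 fold change of -0.16 (limma adjusted p = 0.541).

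*Dlk1* (chr12:109452823-109463336) was barely present in these adult fat pads. It was read 24, 35 and 27 times in Wt mice and 34, 42 and 32 times in mutant mice 1 to 3, which gave 1.01, 1.70 and 1.14 normalized CPM in Wt and 1.78, 1.88 and 1.497 in mutant mice. The genotypes overlapped. At 24 reads counting alone gives an error of 20.4%, compared with 1.29% to 5.95% at the lowest reads of the other 8 markers. The log2 fold change was 0.33 (SE 0.20), with a 95% confidence interval of -0.13 to 0.80 and a limma adjusted p of 0.345.

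The regulatory stromal marker *F3* (chr3:121723537-121735048) encodes tissue factor, which starts the extrinsic pathway of coagulation. Its values were 57.2, 46.1 and 41.8 normalized CPM in Wt mice 1 to 3, against 41.9, 37.9 and 29.7 in mutant mice 1 to 3. Mutant mouse 1 and Wt mouse 3 were level at 41.9 and 41.8, and the other mice were separated by genotype. The means were 48.4 ± 7.92 in Wt and 36.5 ± 6.20 in mutant mice (SD, n = 3 each), a log2 fold change of -0.40 (SE 0.17) with an unadjusted limma p of 0.0492 and a limma adjusted p of 0.205. Without mutant mouse 3 the log2 fold change was -0.27 and the limma adjusted p was 0.327.

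The summed level of 8 adipocyte markers put the 6 mice in the same order as *F3*. It was 22403, 17095 and 15515 normalized CPM in Wt mice 1 to 3, against 16974, 13860 and 11070 in mutant mice 1 to 3. *Cfd* was the largest term in every mouse, at 8514, 6740 and 5933 in Wt and 5625, 4348 and 3636 in mutant mice. Singly, *Adipoq* and *Plin1* did not have the order of *F3*. *Adipoq* was at 2141 in mutant mouse 1 and 1581 in Wt mouse 2, and *Plin1* at 2030 and 1782. None of the 8 adipocyte markers passed the threshold with limma or edgeR. DESeq2 called 3, *Plin4* and *Cfd* lower and *Lep* higher, where it called 12.6% of all genes. An unadjusted limma p under 0.05 was found for 3, *Plin4* lower and *Lep* and *Retn* higher, where 24.2% of all genes tested had such a p. The median log2 fold change of the 8 markers was -0.31, and their part in the *F3* values was not tested. The other 6 of the 8 had negative log2 fold changes, and *Lep* and *Retn* had positive ones. *Lep* was at 813, 680 and 549 in Wt mice and 1120, 1389 and 781 in mutant mice (log2 fold change 0.67, limma adjusted p = 0.172, DESeq2 Wald adjusted p = 0.0316). *Retn*, which encodes resistin, was at 698, 468 and 486 in Wt mice and 1040, 784 and 669 in mutant mice (log2 fold change 0.59, limma adjusted p = 0.175).

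Of the 9 other genes of the regulatory stromal list, 1 rose with limma, 0 fell and 8 did not pass the threshold, where 5.5% of all genes tested rose. Their median log2 fold change was -0.10. The gene that rose was *Fmo2*, a flavin-containing monooxygenase, at 39.5, 31.4 and 34.7 normalized CPM in the Wt mice, against 113, 95.8 and 82.5 in mutant mice 1 to 3. Its log2 fold change of 1.45 (SE 0.14, limma adjusted p = 0.003) is opposite in sign to that of *F3*, and it was called in 6 of 6 fits that left out a mouse. *Inmt*, an amine methyltransferase, was at 80.8, 58.8 and 69.7 in Wt mice and 102, 128 and 88.4 in mutant mice, a log2 fold change of 0.60 (SE 0.17) with a limma adjusted p of 0.093. DESeq2's Wald test called *Inmt* (adjusted p = 0.0153). *Igfbp3*, which binds insulin-like growth factors, had a log2 fold change of 0.70 (limma adjusted p = 0.157). *Meox2*, a homeobox factor, lay lower in all mutant mice, at 33.3, 34.9 and 34.5 in Wt and 26.3, 31.2 and 24.2 in the mutant mice, a log2 fold change of -0.33 (limma adjusted p = 0.129). In this list all mutant mice lay above all Wt mice in 3 genes and below in 1, beside 14.9% and 15.7% of all genes tested. *Rspo2*, a secreted Wnt enhancer, was near the limit of detection, at 0.210 to 0.754 in all mice.

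Ligands and partners of the markers were read beside them. Of 10 such genes, 1 rose with limma, 0 fell and 9 did not pass the threshold, where 5.5% of all genes tested rose. Their median log2 fold change was -0.09. *Tfpi*, tissue factor pathway inhibitor, which blocks the complex that the *F3* protein forms with factor VIIa, rose while *F3* had lower means. It was at 25.5, 24.3 and 23.9 normalized CPM in the Wt mice, against 38.7, 36.0 and 31.6 in mutant mice 1 to 3, a log2 fold change of 0.51 (SE 0.10) with a limma adjusted p of 0.0297. With 1 mouse left out, *Tfpi* was called in 1 of 6 fits, with adjusted p of 0.0344 to 0.118 and log2 fold changes of 0.45 to 0.59.

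*Pdgfc*, a ligand of the PDGFRA receptor, was at 30.3, 21.6 and 23.0 normalized CPM in the Wt mice, against 45.7, 38.8 and 32.6 in mutant mice, a log2 fold change of 0.64 (SE 0.17) with a limma adjusted p of 0.0809. DESeq2's Wald test called *Pdgfc* (adjusted p = 0.0113). *Pdgfa* and *Pdgfb* had log2 fold changes of -0.03 and -0.04, with 95% confidence intervals of -0.27 to 0.21 and -0.35 to 0.28. Of the integrin genes whose products bind ICAM1, *Itgal* was at 54.3, 110 and 150 in Wt mice and 5.35, 66.2 and 86.6 in mutant mice 1 to 3, and *Itgb2* at 58.7, 97.5 and 125 in Wt mice and 29.3, 67.4 and 71.9 in mutant mice, both lowest in mutant mouse 1. *Itgam* was not, at 12.8, 15.8 and 16.4 in Wt mice and 14.4, 14.4 and 11.6 in mutant mice. None of the 3 integrin genes passed the threshold.

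General stromal genes were read as a further list. Of 10 genes, 0 passed the threshold with limma or edgeR, 3 did with DESeq2 (*Dcn*, *Thy1* and *Fbn1*), and 4 had an unadjusted limma p under 0.05. Over all genes the shares were 12.6% with DESeq2 and 24.2% for such a p. The median log2 fold change was 0.16, with 8 positive and 2 negative. All mutant mice lay above all Wt mice in 3 genes and below in 2, beside 14.9% and 15.7% of all genes tested. *Fbn1*, the microfibril protein fibrillin 1, was closest, at 376, 356 and 333 normalized CPM in the Wt mice, against 541, 504 and 444 in the mutant mice 1 to 3, a log2 fold change of 0.48 (SE 0.11), an unadjusted limma p of 0.00436 and a limma adjusted p of 0.0519. *Thy1*, a surface protein of stromal cells and of T cells, was lower in every mutant mouse, at 81.2, 127 and 162 in Wt mice and 24.2, 58.8 and 74.4 in mutant mice, a log2 fold change of -1.31 (SE 0.45) with a limma adjusted p of 0.138. In both genotypes *Thy1* was lowest in mouse 1, as the T cell markers were, and the part of these cells was not tested.

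Ratios within a mouse do not depend on the scaling of its library, and they were taken between markers as a description. How often ratios of other gene pairs separate the genotypes was not examined. A ratio of a marker with higher means to one with lower means repeats the differences given above. The ratio of *Pi16* to *F3* was 5.20, 6.38 and 6.01 in Wt mice and 10.999, 9.34 and 10.1 in mutant mice 1 to 3, so that the genotypes stood apart. The ratio of *Dpp4* to *F3* was 1.26, 1.84 and 2.11 in Wt and 2.72, 2.71 and 3.40 in mutant mice, and that of *Dpp4* to *Icam1* was 1.998, 1.51 and 1.29 in Wt and 7.70, 2.85 and 2.70 in mutant mice, both without overlap. The ratio of *Pi16* to *Icam1*, at 8.22, 5.26 and 3.66 in Wt and 31.2, 9.84 and 8.04 in mutant mice, overlapped between the genotypes. *Pi16* and *Dpp4* were in a like ratio to each other in both genotypes, at 3.48 ± 0.633 in Wt and 3.49 ± 0.537 in mutant mice (SD, n = 3 each).

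Relative to *Pdgfra*, which the subtypes share, *Dpp4* and *Pi16* overlapped between the genotypes. So did the ratios of *Ly6a* and *Dlk1* to *Pdgfra*, of *Pdgfra* to *Pdgfrb* and of *Icam1* to *F3*. The ratio of *Dpp4* to *Pdgfra* was 0.619, 0.706 and 0.781 in Wt and 0.773, 0.747 and 0.799 in mutant mice. The ratios of *F3*, *Icam1* and *Cd34* to *Pdgfra* were lower in every mutant mouse than in every Wt mouse, with means of 0.415 ± 0.0653 and 0.265 ± 0.0262 for *F3*, 0.461 ± 0.149 and 0.219 ± 0.104 for *Icam1*, and 1.76 ± 0.113 and 1.58 ± 0.117 for *Cd34* in Wt and mutant mice (SD, n = 3 each).

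Levels of different genes were compared per kilobase of annotated exon. In Wt mice *Ly6a* came first at a level of 92.7 ± 12.0 normalized CPM per kb, before *Pi16* at 44.2 ± 4.06 and *Cd34* at 28.2 ± 2.13 (SD, n = 3). *F3* at 19.1 ± 3.14 and *Pdgfrb* at 18.8 ± 1.79 followed, and these neighbours overlapped. *Dpp4* at 12.9 ± 1.33, *Icam1* at 12.3 ± 3.75 and *Pdgfra* at 11.6 ± 0.357 could not be ordered, since their ranges overlapped. *Dlk1* was last at 0.226 ± 0.0655.

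In mutant mice the first 3 and the last were the same genes, and the order between them was *Pdgfrb* at a level of 20.97 ± 2.27 normalized CPM per kb, *Dpp4* at 16.7 ± 1.11, *F3* at 14.4 ± 2.45, *Pdgfra* at 13.7 ± 1.05 and *Icam1* at 6.73 ± 2.90 (SD, n = 3). *Dpp4* overlapped with *F3*, and *F3* with *Pdgfra*. *Icam1* stood below *Pdgfra* in every mutant mouse, whereas their ranges overlapped in Wt mice. Levels per kb take the union of all annotated exons as the length, which is 10024 bases for *Pdgfra*, and which exons were used in these mice was not measured here.

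**Figure D4:**
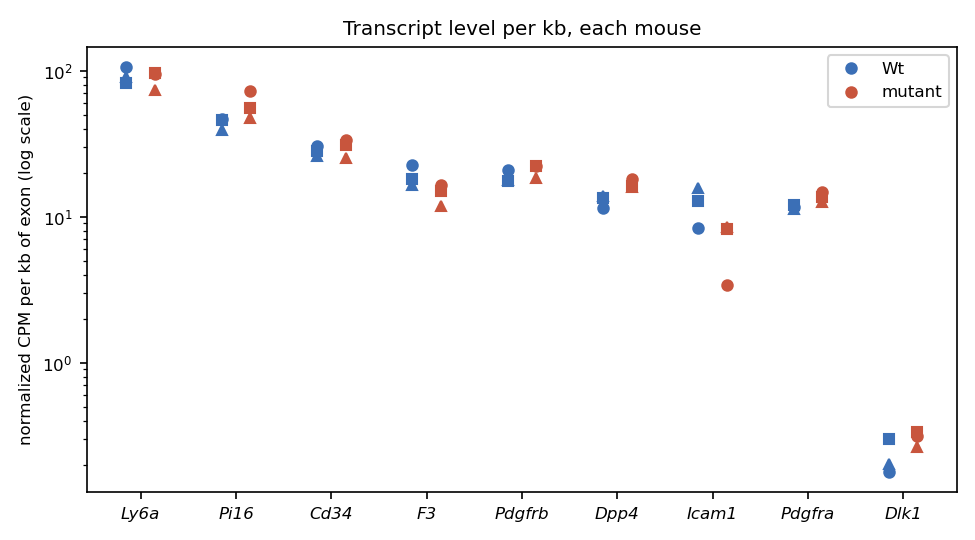
Level of each marker in normalized CPM per kb of exon, on a log axis, for each of the 6 mice (blue Wt, red mutant, with the circle, square and triangle for mice 1, 2 and 3). *Dlk1* lies far below the other 8 markers in every mouse, and the lowest *Icam1* point is mutant mouse 1.

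The genes whose pattern over the 6 mice was most like that of each marker were found by the Pearson correlation of log2(value + 0.5), as a description. For *Pdgfra* they were *Has2*, which makes hyaluronan (r = 0.998), *Tent5b* (0.996) and *Trpm3* (0.995). For *Dpp4* they were *Adamts4*, a protease of the proteoglycan matrix (r = 0.988), *Gm47483* (0.983) and *Particl* (0.982), and for *Pi16* they were *Bnip2* (0.995), *Gars* (0.995) and *Gm10644* (0.993). For *Icam1* they were *Ncoa3* (r = 0.9995), *Rps6ka1* (0.9995) and *Selplg* (0.999), the last of which encodes an adhesion protein of leukocytes.

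For *F3* the closest were *Rhbdf1* (r = 0.996), *C2cd2l* (0.995) and *Car7* (0.995), for *Pdgfrb* *4930520O04Rik* (0.995), *Sparcl1* (0.994) and *Mprip* (0.994), and for *Cd34* *Klhl5* (0.996), *Serpinf1* (0.992) and *Prdx5* (0.991). For *Ly6a* they were *S100a6* (r = 0.996), *Marveld1* (0.994) and *Ergic3* (0.994), and for *Dlk1* *Tmem229a* (0.984), *Gm46224* (0.977) and *Mrps10* (0.974). The 6 mice share 2 genotypes and the 16868 genes were all searched, so the best matches lay between 0.974 and 0.9995 for every marker and do not single out any marker.

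Markers of the other cell types in the fat pad were read once beside the 9 markers. By limma and by edgeR, 0 of 10 mural genes, 0 of 10 endothelial, 0 of 6 macrophage, 0 of 6 epithelial and 0 of 6 skeletal muscle genes passed the threshold, with median log2 fold changes of 0.22, 0.01, -0.09, -1.07 and 0.65. In the same order of lists, 2, 4, 2, 1 and 1 genes had an unadjusted limma p under 0.05, where 24.2% of all genes tested did. DESeq2 called 2, 3, 2, 1 and 1, where it called 12.6% of all genes. The 2 mural genes went opposite ways, *Cspg4* with a log2 fold change of -0.78 and *Acta2* with 0.80. The T cell and B cell lists had medians of -1.84 and -2.30. Adipocyte markers, at summed levels of 11070 to 22403 normalized CPM, were abundant in every mouse, as the tissue label requires. Summed skeletal muscle markers were at 23430, 20479 and 10725 in Wt mice, against 24823, 15501 and 24760 in mutant mice 1 to 3. The muscle sum was above the adipocyte sum in every mouse except Wt mouse 3. The part of muscle tissue in the values of the 9 markers was not tested.

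Transcripts on the other strand could share reads with the markers, since how strand was used in counting is not given in the sources used here. The annotated overlapping genes had low values, with *AC162182.1* opposite *Pi16* at a mean of 7.93 normalized CPM, *Gm16897* opposite *Cd34* at 1.83, *Gm47079* opposite *Icam1* at 0.708, and those opposite *Dpp4* and *Pdgfra* at 0.124 or less. Of the 50-base stretches of *Icam1* transcripts, 13.1% also occur in other annotated genes, mostly in *Gm47079*.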

How the data were processed

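RNA-seq libraries of iWAT from 3 mutant and 3 Wt male mice, 1 for each mouse, were grouped by their labels. The submitters' processing notes name Bowtie2 2.1.0, RSEM 1.2.15, edgeR and mm10, and the use of strand is not given in the sources used here. The values deposited by the authors are a normalized signal for each gene and mouse, in CPM with a factor for each mouse (0.962 to 1.109). In every mouse 100.0% of the values above 0 were whole reads within a tolerance of 0.01, and the reads, 19607423 to 24228381 per mouse, were recovered from them. Floors of 3 reads cover counting error only, since PCR copies are not independent molecules.

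Genes kept by filterByExpr of edgeR 4.0.16 (16868) were tested with limma 3.58.1 (mean-variance trend, pseudocount 0.5, Benjamini-Hochberg) in R 4.3.3. An exact permutation test (two-sided) of 3 mice per genotype has 0.1 as its smallest p. The scripts were tested on simulated data. Alternatives were pseudocounts, filters, scalings, edgeR's quasi-likelihood test, DESeq2 1.42.0, leaving out each mouse in turn, and a replicate block. Coordinates, exon lengths and overlaps are from GENCODE M21 on GRCm38 (mm10), and promoter windows from RefSeq (GRCm38.p6). GENCODE M21 held 55480 of the 55573 gene identifiers. The window of *Pi16* lies in its own annotated exons and was not printed. Python 3.11.15, pandas 2.3.3 and Matplotlib 3.10.9 were used.

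The markers and lists were chosen with earlier results of these data known. Every marker is named, and of each list the genes past the threshold, at most 4. Others were named for their role beside a marker after their values were seen.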

Additional observations from a re-analysis of the deposited data

How the results depend on the processing

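No marker was called under other pseudocounts, filters or scalings, by edgeR's quasi-likelihood test or with any mouse left out (0 in each of these fits). DESeq2's Wald test called 1, *Dpp4*. Among the 29 other genes of the 3 subtype lists, 4 were called, beside 8.11% of all genes tested. Under the other pseudocounts, filters, scalings and tests 3 to 6 were called. edgeR called 4 and DESeq2 called 6, beside 6.92% and 12.6% of all genes. With a mouse left out 1 to 2 were called (without mutant mice 1, 2 and 3, 1, 1 and 2, and without Wt mice 1, 2 and 3, 2, 1 and 2), with *Fmo2* in each of these 6 fits. A fit without a mouse has fewer samples. The share of all genes called in these fits is not given here, so their counts cannot be set against a background. The log2 fold changes of 7 markers kept their sign under all alternatives. With a mouse left out *Ly6a* ranged from -0.16 to 0.0437 (without mutant mouse 3 and 0.0229 without Wt mouse 1) and *Cd34* from -0.0167 (without mutant mouse 1) to 0.19, and the cause was not tested.

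The mouse numbers were tried as a replicate block. Deviations from the genotype mean of same-numbered mice correlated at 0.686, 0.0573 and 0.56 across genes. Wt mice 1 and 3 correlated best with the mutant mouse of their own number, and Wt mouse 3 nearly as well with mutant mouse 2 (0.536). Wt mouse 2 correlated best with mutant mouse 3 (0.332). The labels name no pairing, and whether same-numbered mice share more than a number was not tested. With the block 4 markers were called, *Pdgfra* and *Pi16* higher (adjusted p of 0.0449 and 0.0423) and *Icam1* and *F3* lower (0.0133 and 0.0185), beside 24.1% of all genes tested (4063 of 16868). With the block 9 of the 29 other genes were called.

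Depth limits *Dlk1* most, since its values rest on 24 to 42 reads. With 3 mice per genotype, differences of the size of those of *Pdgfra*, *Pi16* and *F3* did not pass the threshold, which does not show that the genotypes are alike.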

Other observations

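The 6 macrophage markers did not share a direction, with 2 positive and 4 negative log2 fold changes, and 0 passed the threshold with limma. *Cd163*, a scavenger receptor for haemoglobin, was at 112, 105 and 88.8 normalized CPM in Wt mice 1 to 3 and at 180, 147 and 131 in mutant mice 1 to 3, higher in 3 of 3 mutant mice (log2 fold change 0.57, limma adjusted p = 0.0686). *Mrc1*, the mannose receptor, was at 218, 197 and 207 in Wt and 285, 249 and 219 in the mutant mice, a log2 fold change of 0.27 (limma adjusted p = 0.221). *Cd68*, a lysosomal protein, was lower in 3 of 3 mutant mice, at 49.5, 53.7 and 68.5 in Wt and 36.5, 45.7 and 37.6 in the mutant mice (log2 fold change -0.51, limma adjusted p = 0.0988). *Adgre1*, *Csf1r* and *Lyz2* overlapped between the genotypes, with log2 fold changes of -0.27 to -0.02. Over all genes tested, 14.9% had all mutant mice above all Wt mice, and 15.7% had them all below. DESeq2's Wald test called *Cd163* and *Cd68*, in opposite directions, where it called 12.6% of all genes.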
